A study of Drosophila melanogaster with 12 samples.

Results

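The question addressed here was whether methylphenidate given to a male fly and methylphenidate given to his mother changed the same transcripts by the same amount. For each probe set, a set of short DNA probes that reports 1 transcript or a few, the drug effect in exposed males was subtracted from the maternal drug effect in F1 sons. The result is called the difference of effects, and it is negative where the effect was lower in sons. All 12 of the 12 arrays in the series entered it, as 3 arrays in each of 4 groups.

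RNA of whole male Drosophila melanogaster was hybridized to Affymetrix expression arrays, with 8 males pooled per sample. The sons of methylphenidate mothers were F1 males whose mothers had been exposed to the drug and whose fathers had been exposed to sucrose. The sons of sucrose parents were F1 males with 2 sucrose-exposed parents. The methylphenidate males had themselves been exposed to the drug for 24 h, and the sucrose males to sucrose for 24 h. All groups were labelled wt, but strain, dose, fly age and the duration of parental exposure are not stated in the sources used. In the design text of the series, all F1 samples come from 1 cross, that of drug-exposed mothers, whereas the sample labels name both crosses. The sample labels were followed, and every value for sons rests on them. Nothing says that the replicates were separate cultures. The p-values therefore describe the scatter of these samples, which may be technical, and their precision is limited by having 3 arrays per group.

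Methylphenidate is a psychostimulant that blocks the dopamine transporter, so that released dopamine stays longer outside neurons. Insects clear swallowed foreign compounds mainly in the gut, fat body and Malpighian tubules. Cytochrome P450 enzymes oxidize the compound, and glutathione S-transferases and UDP-glycosyltransferases then attach a soluble group to it. The gut also digests starch, sugar, protein and fat, and digestive and drug-clearing transcripts are read together in whole flies.

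Arrays of a group correlated at 0.995 to 0.997, and their median log2 signals were 1.49 to 1.57 apart from the 1.37 of replicate 3 in the sons of sucrose parents. Between 36.8% and 38.8% of the probe sets lay under a log2 signal of 0.5 on each array, close to the floor, where differences are understated. The 3′ minus 5′ signal of the GAPDH control probe sets, a measure of RNA integrity, was 1.526 ± 0.0225 in sons of methylphenidate mothers and 1.542 ± 0.0439 in sons of sucrose parents (SD, n = 3 each, two-sided exact permutation p = 0.6). It was 1.504 ± 0.003 in methylphenidate males and 1.622 ± 0.086 in sucrose males (SD, n = 3 each, two-sided exact permutation p = 0.1, the smallest possible with 3 against 3). Markers of testis, seminal fluid, muscle and the other organs of a male fly were detected in all groups. The mean log2 signal of the seminal fluid list was 7.64 to 7.68, 7.58 to 7.64, 7.07 to 7.30 and 7.33 to 7.35 in sons of methylphenidate mothers, sons of sucrose parents, methylphenidate males and sucrose males.

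The effect of methylphenidate differed between the generations for 393 of 18769 probe sets (2.09%) at an adjusted p under 0.05. The effect was lower in sons for 267 of them (1.42%), which include 236 named genes, and higher in sons for 126 (0.671%), which include 115 named genes. The difference of effects exceeded 2-fold for 120 of the lower and 39 of the higher probe sets, and 8-fold for 16 and 2. Without adjustment, 2970 probe sets (15.8%) had a p under 0.05. The median difference of effects over all probe sets was 0.04 on the log2 scale, and the median half-width of its 95% interval was 0.28. With the first array of the sons of sucrose parents left out, the probe sets with a lower and a higher effect numbered 259 and 279. The total was between 241 and 260 when any of 4 arrays was left out, namely replicate 2 or 3 of the sons of methylphenidate mothers, replicate 2 from the sons of sucrose parents, or replicate 3 of the sucrose males. With the GAPDH difference as a covariate, 209 probe sets passed, of which 191 were among the 393.

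**Figure D1:**
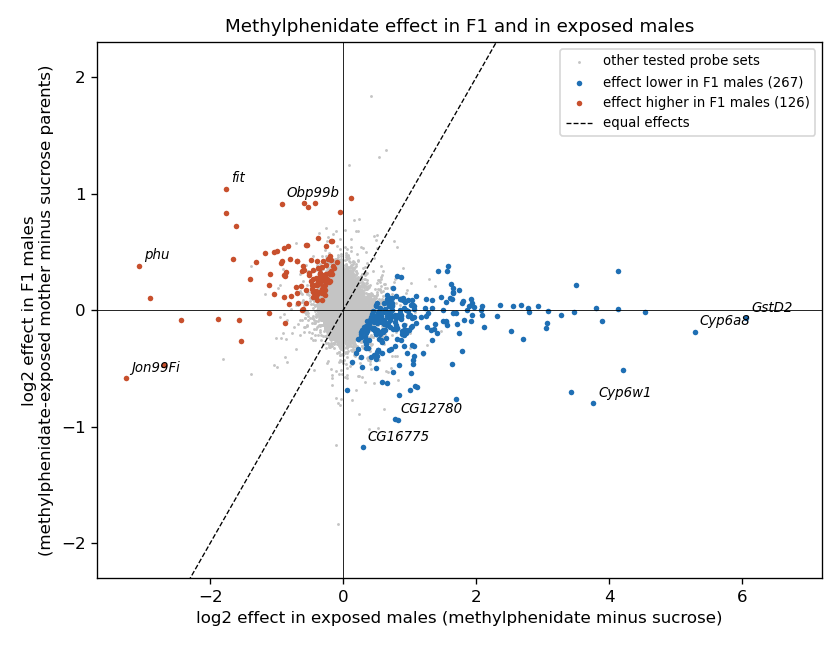
Each point is a probe set. The x axis gives the log2 methylphenidate effect in exposed males, and the y axis the log2 effect in F1 sons. Blue points are the 267 probe sets with a lower effect in sons, orange points the 126 with a higher effect, grey points the others, and the dashed line marks equal effects. The blue points spread along the x axis near a y value of 0, while orange points lie to the left of the line, most of them above 0.

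The lower and the higher differences differed in form by degree. Among the 267 probe sets with a lower effect in sons, the median log2 effect was -0.09 in sons and 0.80 in exposed males. The effect in exposed males was the larger in size for 255 of them, and in 188 the effect in sons was under 0.25 of it. Both effects had opposite signs for 196 of the 267, and 26 passed in neither generation taken alone. Among the 126 with a higher effect in sons, the medians were 0.28 in sons and -0.42 in exposed males. There the effect in exposed males was the larger in size for 91 and the effect in sons for 35. In 23 the effect in sons was under 0.25 of that in exposed males. Both effects had opposite signs for 117 of the 126, and 51 passed in neither generation taken alone. Taken alone, the effect in sons passed for 1 of 18769 probe sets (0.00533%), which has no gene name here, and the effect in exposed males for 629 (3.35%).

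Which group stood apart was described by setting aside the group whose removal left the other means closest together. Among the 267 lower differences, the methylphenidate males stood apart as the highest group for 134 and the sucrose males as the lowest for 121. The lowest group was that of sons of methylphenidate mothers for 8, and sons of sucrose parents the highest for 4. Among the 126 higher differences, the sucrose males stood apart as the highest group for 47 and the methylphenidate males as the lowest for 44. Sons of sucrose parents were the lowest group for 18, and sons of methylphenidate mothers the highest for 17. Over all 18769 probe sets, methylphenidate males were the highest group apart for 12.8% and sucrose males the lowest for 11.2%. Sucrose males were the highest for 19.1% and methylphenidate males the lowest for 11.1%, while sons of sucrose parents were the lowest for 16.5% and sons of methylphenidate mothers the highest for 11.8%. The same difference of effects therefore covers patterns in which the drug-exposed males moved and patterns in which the sucrose-exposed males differed from all other groups, sons of sucrose parents included.

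Drug-clearing genes of the P450, glutathione S-transferase and UDP-glycosyltransferase families made up 8 of the 12 lowest differences among named genes. Probe sets assigned to several genes or to none were left out of this ranking. Of 87 measured P450 genes, 23 had a lower effect in sons and 3 a higher one, against 1.95% and 0.918% of all 11982 genes with 1 probe set each. Of 35 UDP-glycosyltransferase genes, 11 were lower and 1 was higher, and of 35 glutathione S-transferase genes, 11 were lower and 0 higher. The median difference of effects was -0.16 for the P450 genes, -0.23 for the UDP-glycosyltransferases and -0.32 for the glutathione S-transferases, against 0.06 over all genes. Methylphenidate males stood apart as the highest group for 21 of the 23 P450 genes and 11 of the 11 UDP-glycosyltransferases. The 11 glutathione S-transferases were split, with methylphenidate males apart as the highest group for 6 and sucrose males as the lowest for 5. With the GAPDH covariate, 18 P450 genes, 9 UDP-glycosyltransferases and 10 glutathione S-transferases had a lower effect in sons.

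GstD2, a glutathione S-transferase of the delta class, had the lowest difference of effects. Its log2 signal was 2.16, 2.01 and 2.98 in sons of methylphenidate mothers, 2.37, 2.81 and 2.17 in sons of sucrose parents, 6.50, 7.94 and 7.43 in methylphenidate males, and 1.33, 1.45 and 0.92 in sucrose males. Methylphenidate males lay far above all other samples, the sons' groups overlapped, and sucrose males were lowest. The log2 difference of effects was -6.13 ± 0.44 (SE, adjusted p = 2.69e-06). GstD2 was part of a run of neighbouring called genes, with GstD10, GstD9 and GstD1. GstD1, an abundant enzyme that also acts on the insecticide DDT, had a smaller difference of -1.25 ± 0.15 (SE, adjusted p = 0.000246).

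Among P450 genes, Cyp6a8 had 3.90, 2.88 and 2.21 in sons of methylphenidate mothers, 2.83, 3.21 and 3.51 in sons of sucrose parents, 8.41, 9.51 and 9.39 in methylphenidate males and 3.87, 3.82 and 3.76 in sucrose males (log2 signals). Only the methylphenidate males stood apart. The difference of effects was -5.47 ± 0.49 (SE, adjusted p = 1.94e-05). Cyp6a2, Cyp12d1-d and Cyp28a5 followed the same form, with differences of -3.29, -3.50 and -3.32. Cyp12d1-d has a near-identical copy in the fly genome, and its probes may read both. Cyp9b2 and Cyp4e2 had differences of -2.64 and -1.94.

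Cyp6w1 differed from these genes in the sons. Its log2 signal was 4.68, 4.66 and 4.43 in sons of methylphenidate mothers, 5.33, 5.25 and 5.59 in sons of sucrose parents, 8.65, 9.66 and 9.36 in methylphenidate males, and 5.23, 5.39 and 5.78 in sucrose males. Sons of methylphenidate mothers lay below every other sample, while methylphenidate males lay above every other sample. The log2 effect was -0.80 in sons and 3.76 in exposed males, and the difference of effects was -4.56 ± 0.29 (SE, adjusted p = 9.96e-07). Taken alone, the effect in sons did not pass. Cyp6a14 had effects of -0.70 in sons and 3.43 in exposed males, with no overlap between the groups of either generation.

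Ugt37A2, a UDP-glycosyltransferase, had 2.57, 2.22 and 2.29 in sons of methylphenidate mothers, 2.78, 3.26 and 2.59 in sons of sucrose parents, 6.19, 7.11 and 6.57 in methylphenidate males and 1.95, 2.73 and 2.55 in sucrose males (log2 signals). The exposed groups were well separated, and in sons the drug group lay just below the other. The difference of effects was -4.73 ± 0.33 (SE, adjusted p = 1.96e-06). Ugt35C1, Ugt37B1 and Ugt302C1 had differences of -2.88, -1.69 and -1.50.

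Ecdysteroid kinase-like genes form a large insect family whose founding members phosphorylate moulting hormone. Of 42 measured members, 16 had a lower effect in sons and 2 a higher one, against 1.95% and 0.918% of all genes. The median difference was -0.47. CG13659 had 1.42, 0.97 and 1.43 in sons of methylphenidate mothers, 1.51, 1.37 and 0.99 in sons of sucrose parents, 5.14, 5.75 and 5.76 in methylphenidate males, and 0.95, 1.06 and 1.05 in sucrose males (log2 signals). Methylphenidate males were the high group and both groups of sons overlapped, which gave a difference of -4.55 ± 0.24 (SE, adjusted p = 2.8e-07). CG11893, CG6908, CG13658 and CG6830 had differences of -4.13, -3.98, -2.95 and -2.70. The longest run of neighbouring called genes was made of 6 members of the family and held both directions. CG31300, CG31104, CG13658 and CG11893 had a lower effect in sons, while their neighbours CG10514 and CG11892, named after their values were seen, had a higher one. CG11892 had 7.52, 7.37 and 7.55 in sons of methylphenidate mothers, 7.46, 7.33 and 7.22 in sons of sucrose parents, 6.22, 6.15 and 5.74 in methylphenidate males and 6.95, 7.21 and 7.06 in sucrose males. Here methylphenidate males were the lowest group, and the difference of effects was 1.18 ± 0.17 (SE, adjusted p = 0.00116).

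Genes of the methionine cycle and of transsulfuration, which makes cysteine for glutathione, showed the same direction. Of 10 measured genes, 5 had a lower effect in sons and 0 a higher one, against 1.95% and 0.918% of all genes. The median difference was -0.69. Gnmt, a glycine methyltransferase that uses S-adenosylmethionine, had a log2 signal of 6.19, 6.39 and 6.45 in sons of methylphenidate mothers, 6.22, 6.49 and 6.09 in sons of sucrose parents, 7.94, 8.31 and 8.35 in methylphenidate males and 6.11, 6.30 and 6.78 in sucrose males. Only methylphenidate males were high, and the difference was -1.73 ± 0.23 (SE, adjusted p = 0.000605). Cth, which encodes cystathionine gamma-lyase, pug, a folate enzyme, and Ahcy, which removes S-adenosylhomocysteine, had differences of -1.12, -1.10 and -0.66. With the GAPDH covariate, 3 genes of the list had a lower effect, and Ahcy was not among them. CG2065, outside these lists, ranked among the 12 lowest differences, with 2.60, 2.73 and 2.89 in sons of methylphenidate mothers, 2.47, 2.78 and 1.96 in sons of sucrose parents, 4.97, 6.76 and 7.04 in methylphenidate males and 2.13, 2.47 and 1.76 in sucrose males (log2 signals). Methylphenidate males alone were high, with a difference of -3.80 ± 0.56 (SE, adjusted p = 0.00156). Of 21 antioxidant genes, 1 was lower and 0 were higher, against 1.95% and 0.918% of all genes. The lower gene was Gtpx, with a difference of -0.54 ± 0.11 (SE, adjusted p = 0.0174).

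**Figure D2:**
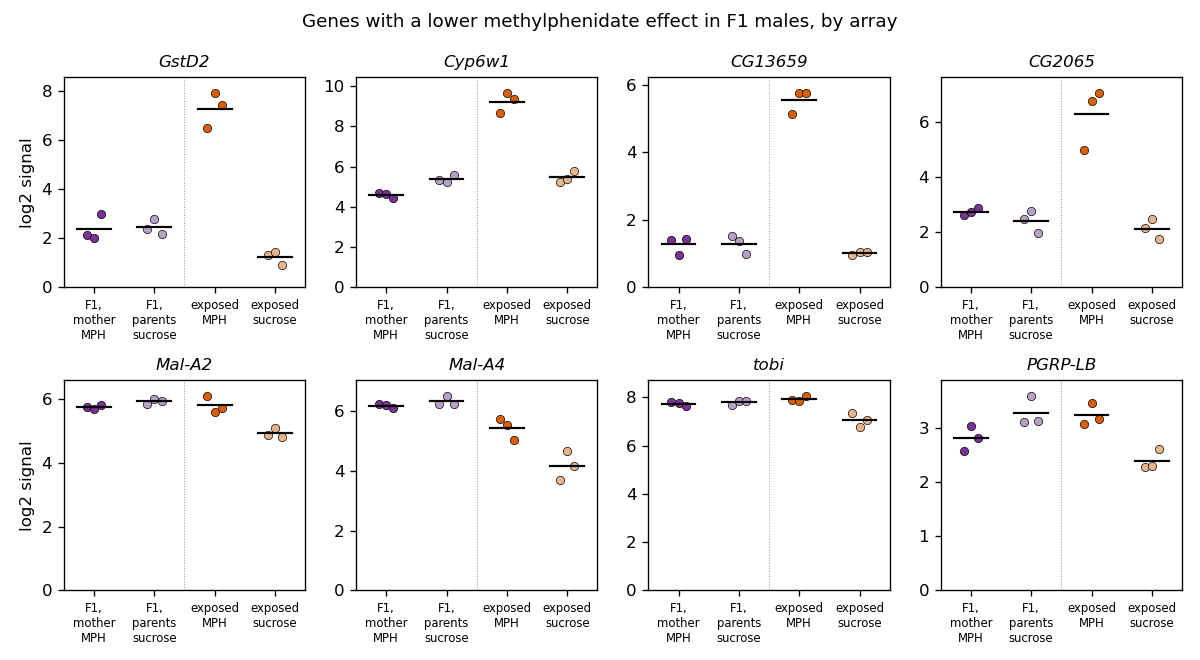
Log2 signals (y axes) of 8 genes with a lower methylphenidate effect in sons. Each point is an array, each horizontal bar a mean of 3 arrays, and MPH is methylphenidate. In the upper row (GstD2, Cyp6w1, CG13659, CG2065) methylphenidate males are the high group, and in the lower row (Mal-A2, Mal-A4, tobi, PGRP-LB) sucrose males are the low group.

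The list of gut carbohydrases, which holds maltases, glucosidases and mannosidases, had the other form of a lower difference. Not all of its members need act on food or in the gut. Of 19 measured genes, 10 had a lower effect in sons and 0 a higher one, against 1.95% and 0.918% of all genes. The median difference was -0.87. Sucrose males stood apart as the lowest group for 9 of the 10. In all 10 the mean was higher in sons of sucrose parents than in sucrose males, by 0.49 to 2.60 on the log2 scale.

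Mal-A2, a maltase, had a log2 signal of 5.76, 5.69 and 5.80 in sons of methylphenidate mothers, 5.83, 6.02 and 5.93 in sons of sucrose parents, 6.11, 5.61 and 5.73 in methylphenidate males and 4.89, 5.09 and 4.82 in sucrose males. The sucrose males lay below all other samples, and methylphenidate males overlapped both groups of sons. The difference of effects was -1.06 ± 0.16 (SE, adjusted p = 0.00223). The related maltase Mal-A4 had 6.23, 6.19 and 6.08 in sons of methylphenidate mothers, 6.22, 6.50 and 6.22 in sons of sucrose parents, 5.72, 5.53 and 5.04 in methylphenidate males and 3.69, 4.67 and 4.15 in sucrose males. Both groups of sons lay above both exposed groups, and the difference was -1.41 ± 0.29 (SE, adjusted p = 0.0195), a call lost in 5 of the 20 settings. tobi, an alpha-glucosidase gene that answers to insulin and glucagon-like signals, had a difference of -0.93 ± 0.17 (SE, adjusted p = 0.0109), and there too the sucrose males were lowest. Mal-B1 was the exception in form, with methylphenidate males highest and a difference of -2.52 ± 0.42 (SE, adjusted p = 0.00451).

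The count of carbohydrases was 3 with the GAPDH covariate, whose mean was highest in sucrose males, and 6 with trend and robust settings. It was between 3 and 5 without replicate 1 or 3 of the sucrose males, replicate 2 from the sons of sucrose parents, or replicate 2 or 3 of the sons of methylphenidate mothers. Gut markers as a list were also lowest in sucrose males, with a mean log2 signal of 3.71 to 3.81 in sons of methylphenidate mothers, 3.73 to 4.06 in sons of sucrose parents, 3.60 to 3.79 in methylphenidate males and 3.41 to 3.54 in sucrose males. Their part in the carbohydrase result was not tested.

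Other genes with sucrose males lowest were PGRP-LB, an enzyme that degrades bacterial peptidoglycan, and etaTry, a trypsin. PGRP-LB had 2.58, 3.03 and 2.82 in sons of methylphenidate mothers, 3.12, 3.60 and 3.14 in sons of sucrose parents, 3.08, 3.46 and 3.17 in methylphenidate males and 2.29, 2.29 and 2.62 in sucrose males (log2 signals). Within each generation the drug and sucrose groups did not overlap, and they ran in opposite directions, with a difference of -1.31 ± 0.21 (SE, adjusted p = 0.00382). Of 27 measured immune genes it was the 1 that passed, which is near the 1.95% and 0.918% called among all genes. The fat body gene Sodh1, a sorbitol dehydrogenase, had a difference of -1.32 ± 0.19 (SE, adjusted p = 0.00171). In whole flies, fewer cells of a type and less RNA per cell cannot be told apart.

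The listed gut peptidases mostly ran the other way from the carbohydrases. Of 39 measured genes of the list, 7 had a higher effect in sons and 1, etaTry, a lower one, against 0.918% and 1.95% of all genes. The median difference was 0.34. Peptidase genes outside the list were not counted, so these counts do not cover all peptidases of the fly. Methylphenidate males were the lowest group for all 7. Jon99Fi, a Jonah serine protease of the midgut, had a log2 signal of 5.85, 5.71 and 6.05 in sons of methylphenidate mothers, 6.68, 6.17 and 6.51 in sons of sucrose parents, 2.0, 1.76 and 2.92 in methylphenidate males, and 5.13, 5.77 and 5.57 in sucrose males. Methylphenidate males lay far below all other samples, and sons of methylphenidate mothers lay below sons of sucrose parents. Both effects had the same sign, -0.59 in sons and -3.26 in exposed males, and the difference was 2.68 ± 0.34 (SE, adjusted p = 0.000506).

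CG12374, a predicted carboxypeptidase, had 8.29, 8.01 and 8.19 in sons of methylphenidate mothers, 8.57, 7.85 and 8.31 in sons of sucrose parents, 5.60, 6.02 and 5.83 in methylphenidate males, and 7.79, 8.52 and 8.45 in sucrose males (log2 signals). Only methylphenidate males stood apart, with a difference of 2.36 ± 0.27 (SE, adjusted p = 0.000228). Jon25Bii and Jon65Ai, further Jonah proteases, had differences of 2.23 and 1.81, but lost their call in 11 and 10 of the 20 alternative settings. Their mean log2 signals were 1.70 and 1.78 higher in sons of sucrose parents than in sucrose males. A difference of log2 effects can depend on such unequal starting levels. The count of peptidases with a higher effect was 4 with the replicate number as a block and 2 with trend and robust settings. It was 2 or 3 without replicate 2 or 3 of the sucrose males, replicate 2 or 3 from the sons of sucrose parents, or any 1 of the sons of methylphenidate mothers.

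Lipases showed 3 genes with a higher effect in sons and 0 with a lower one among 31 measured. These counts stand against 0.918% and 1.95% of all genes, and the median difference was 0.13. CG17192, a predicted lipase, had 5.26, 4.48 and 5.01 in sons of methylphenidate mothers, 5.62, 4.67 and 4.13 in sons of sucrose parents, 1.69, 1.27 and 1.39 in methylphenidate males, and 4.39, 4.11 and 4.58 in sucrose males (log2 signals). Methylphenidate males were low and the other groups overlapped, with a difference of 3.01 ± 0.41 (SE, adjusted p = 0.000823). Its neighbour CG6295 and mag, the gut lipase magro, had differences of 1.48 ± 0.25 and 1.68 ± 0.30 (SE).

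Fat storage and nutrient signalling genes were mostly called in the higher direction. Of 41 measured genes, 6 had a higher effect in sons and 1 a lower one, against 0.918% and 1.95% of all genes. The median difference over the list was 0.05. In 4 of the 6 the sucrose males stood apart as the highest group. AkhR, the receptor of the fat-mobilizing adipokinetic hormone, had 4.32, 4.28 and 4.63 in sons of methylphenidate mothers, 4.0, 4.0 and 3.72 in sons of sucrose parents, 4.02, 3.69 and 3.86 in methylphenidate males, and 5.0, 4.87 and 4.85 in sucrose males (log2 signals). Neither generation's groups overlapped, and the drug groups lay above their sucrose group in sons and below it in exposed males. The difference of effects was 1.55 ± 0.16 (SE, adjusted p = 7.87e-05). The other probe set of AkhR, under 0.5 in every group, had 0.15 and did not pass.

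Lsd-1, a perilipin that coats lipid droplets, and Jabba, which anchors histones to lipid droplets, had the same form. Lsd-1 had 6.38, 6.36 and 6.56 in sons of methylphenidate mothers, 6.01, 6.19 and 5.78 in sons of sucrose parents, 6.28, 5.98 and 5.95 in methylphenidate males and 6.85, 6.92 and 6.86 in sucrose males (log2 signals). The groups were separate within each generation and ran in opposite directions, with a difference of 1.24 ± 0.16 (SE, adjusted p = 0.000445). Both probe sets of Jabba passed, with differences of 1.73 and 1.39. CCHa2, a peptide hormone released by fat body and gut after feeding, had methylphenidate males as its lowest group and a difference of 1.34 ± 0.13 (SE, adjusted p = 5.36e-05). The fat body marker list as a whole had 1 lower and 1 higher gene of 18, against 1.95% and 0.918% of all genes. Its mean log2 signal was 5.66 to 5.82 in sons of methylphenidate mothers, 5.34 to 5.62 in sons of sucrose parents, 4.91 to 5.30 in methylphenidate males and 4.82 to 4.91 in sucrose males, and its part in these differences was not tested.

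phu had the highest difference of effects of all named genes. Its log2 signal was 0.78, 0.72 and 0.71 in sons of methylphenidate mothers, 0.64, 0.29 and 0.13 in sons of sucrose parents, -0.21, 0.39 and 0.24 in methylphenidate males, and 3.81, 2.94 and 2.88 in sucrose males. Only the sucrose males lay clearly above the floor of the array, so the difference of 3.45 ± 0.30 (SE, adjusted p = 1.76e-05) rests on the exposed generation. CG13912 was higher above the floor. It had 2.34, 2.47 and 2.76 in sons of methylphenidate mothers, 1.81, 1.86 and 1.74 in sons of sucrose parents, 1.78, 1.62 and 1.95 in methylphenidate males and 3.36, 3.40 and 3.46 in sucrose males. Its groups were separate in both generations and opposite in direction, with a difference of 2.34 ± 0.15 (SE, adjusted p = 9.96e-07). CG3348, CG15155 and CG13912 also ranked among the 12 highest differences of named genes, CG3348 with 2.60 ± 0.39 and CG15155 with 2.11 ± 0.24 (SE).

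**Figure D3:**
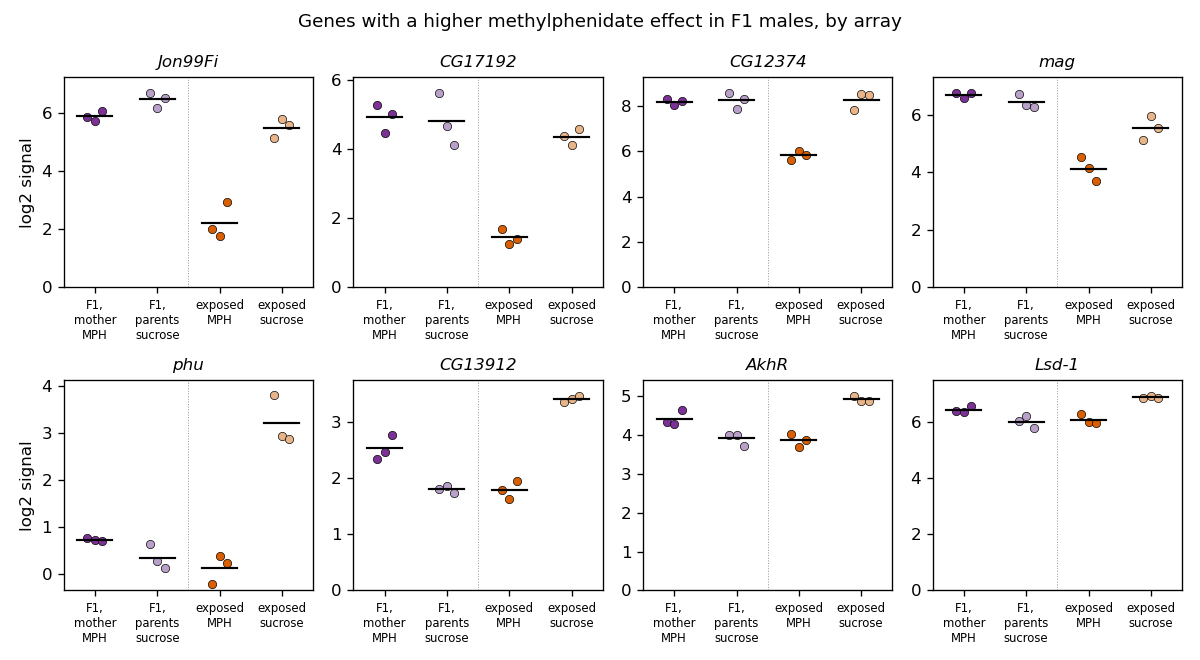
Log2 signals (y axes) of 8 genes with a higher methylphenidate effect in sons. Each point is an array, each horizontal bar a mean of 3 arrays, and MPH is methylphenidate. In the upper row (Jon99Fi, CG17192, CG12374, mag) methylphenidate males are the low group, and in the lower row (phu, CG13912, AkhR, Lsd-1) sucrose males are the high group.

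Many of the genes above and below also moved in opposite directions in the 2 generations. In 134 of the 393 probe sets, the values of the drug and sucrose groups did not overlap in either generation and ran in opposite directions, 64 with a lower and 70 with a higher effect in sons. Among all 18769 probe sets this held for 334 (1.78%), and the share among the 393 is no independent result, since the same contrast chose them.

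fit, which encodes a satiety peptide secreted by the fat body, had the largest pair of opposite effects by the smaller of both. Its log2 signal was 6.94, 6.63 and 6.65 in sons of methylphenidate mothers, 5.96, 5.84 and 5.29 in sons of sucrose parents, 3.65, 2.29 and 3.01 in methylphenidate males, and 4.95, 4.38 and 4.90 in sucrose males. All other samples lay between sons of methylphenidate mothers at the top and methylphenidate males at the bottom. The effect was 1.04 in sons and -1.76 in exposed males, and the difference was 2.80 ± 0.38 (SE, adjusted p = 0.000823). Obp99b, an odorant-binding protein gene also expressed in fat body, had 8.63, 8.22 and 8.56 in sons of methylphenidate mothers, 7.46, 8.11 and 7.09 in sons of sucrose parents, 6.72, 5.95 and 5.98 in methylphenidate males, and 7.05, 7.05 and 7.33 in sucrose males. The same groups were at the top and bottom as for fit. Its effects were nearly equal in size, 0.92 in sons and -0.93 in exposed males, with a difference of 1.84 ± 0.33 (SE, adjusted p = 0.00813, and 0.0549 with trend and robust settings). Of 43 measured odorant-binding protein genes it was the 1 that passed, which is near the 1.95% and 0.918% called among all genes, and 14 of the 43 lay under 0.5 in every group.

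CG12780 had the reverse pattern, with 4.74, 4.47 and 4.60 in sons of methylphenidate mothers, 5.60, 5.74 and 5.28 in sons of sucrose parents, 5.86, 5.53 and 5.75 in methylphenidate males, and 4.92, 5.20 and 4.69 in sucrose males (log2 signals). Sons of methylphenidate mothers and sucrose males were the low groups. The difference was -1.72 ± 0.20 (SE, adjusted p = 0.000207), with an effect of -0.94 in sons, the larger of both in size. CG11911 had effects of -0.94 in sons and 0.82 in exposed males. Its difference of -1.76 ± 0.33 had an adjusted p of 0.0125, but 0.108 with the GAPDH covariate and 0.0676 with trend and robust settings. Cpr67Fb, a cuticle protein gene, and CG15043 had effects of -0.76 and -0.73 in sons against 1.70 and 0.83 in exposed males, and CG15043 lost its call in 12 of the 20 settings.

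Lst encodes limostatin, a peptide hormone that restrains insulin release. It had 5.31, 5.11 and 5.15 in sons of methylphenidate mothers, 5.82, 6.02 and 5.58 in sons of sucrose parents, 6.44, 6.05 and 6.20 in methylphenidate males, and 5.57, 5.45 and 5.92 in sucrose males (log2 signals). Sons of methylphenidate mothers were the lowest group and methylphenidate males the highest. The effect was -0.62 in sons and 0.58 in exposed males, with a difference of -1.20 ± 0.19 (SE, adjusted p = 0.00351). Sh, the Shaker potassium channel, had 2.97, 3.14 and 3.14 in sons of methylphenidate mothers, 2.81, 2.57 and 2.18 in sons of sucrose parents, 2.49, 2.58 and 2.46 in methylphenidate males, and 2.91, 3.29 and 3.0 in sucrose males. Within each generation the groups did not overlap, and they ran in opposite directions. The difference of this probe set was 1.12 ± 0.19 (SE, adjusted p = 0.00587), while the 6 other probe sets of Sh did not pass, with differences from -0.04 to 0.52.

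The effect in sons was the larger in size for 12 of the lower and 35 of the higher probe sets. CG16775 had 3.25, 3.05 and 3.09 in sons of methylphenidate mothers, 4.55, 4.32 and 4.05 in sons of sucrose parents, 2.95, 2.31 and 2.13 in methylphenidate males, and 2.47, 2.10 and 1.95 in sucrose males (log2 signals). The groups of sons were separate while the exposed groups overlapped, with effects of -1.18 and 0.29 and a difference of -1.47 ± 0.26 (SE, adjusted p = 0.00872). Cyp4ad1, a P450 gene unlike those above, had 2.97, 3.15 and 3.10 in sons of methylphenidate mothers, 2.35, 2.56 and 2.51 in sons of sucrose parents, 2.72, 2.35 and 2.5 in methylphenidate males, and 2.77, 2.61 and 2.71 in sucrose males. Sons of methylphenidate mothers lay above all other samples, and the exposed groups overlapped. Its effect was 0.60 in sons and -0.17 in exposed males, and the difference was 0.77 ± 0.14 (SE, adjusted p = 0.00813). The neighbouring P450 gene Cyp4e2 had a lower effect in sons.

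CG4250 had 4.18, 3.95 and 3.67 in sons of methylphenidate mothers, 2.93, 3.17 and 3.04 in sons of sucrose parents, 2.44, 2.52 and 2.44 in methylphenidate males and 2.52, 3.44 and 3.04 in sucrose males (log2 signals). The 3 samples of sons of methylphenidate mothers lay above all other samples, and the difference was 1.42 ± 0.25 (SE, adjusted p = 0.00745). CenB1A, an Arf GTPase-activating protein gene, and Stam, an adaptor of endosomal sorting, had smaller differences of 0.67 ± 0.12 and 0.45 ± 0.09 (SE). CG15818, CG13743 and the N-acetyltransferase-like gene AANATL4 had differences of -0.99 ± 0.15, 1.01 ± 0.19 and 1.11 ± 0.21 (SE). The effects in sons and in exposed males were nearly equal in size for CG15818 (-0.49 and 0.49), AANATL4 (0.56 and -0.55) and Stam (0.24 and -0.21). For CG16775, Cyp4ad1, CG4250, CenB1A, CG13743, AANATL4, CG11911 and Stam neither generation's effect passed when taken alone.

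**Figure D4:**
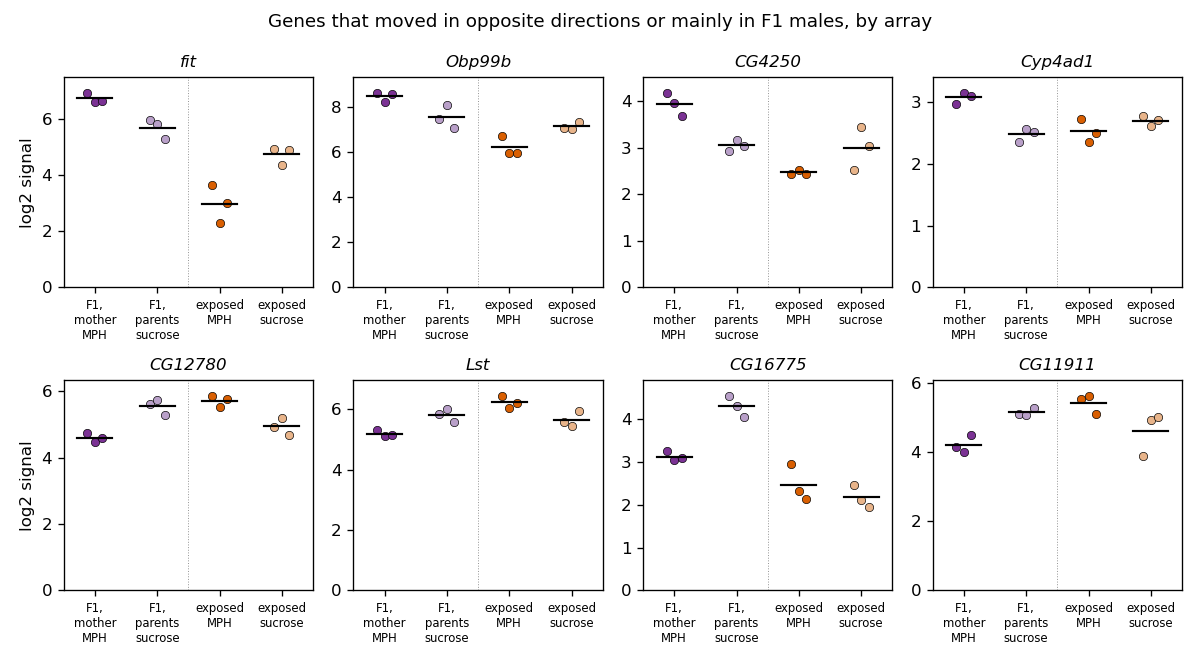
Log2 signals (y axes) of 8 genes whose groups moved in opposite directions in both generations or mainly in sons. Each point is an array, each horizontal bar a mean of 3 arrays, and MPH is methylphenidate. fit, Obp99b, CG4250 and Cyp4ad1 are highest in sons of methylphenidate mothers, CG16775 is lower in sons of methylphenidate mothers than in sons of sucrose parents, and CG12780, Lst and CG11911 are low in sons of methylphenidate mothers and high in methylphenidate males.

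The drug's known target pathway gave no call. Of 27 measured genes for dopamine and other amines, 0 passed in either direction, with 3 at an unadjusted p under 0.05 and a median difference of 0.10. The log2 signal of 10 of the 27 was under 0.5 in every group. DAT, the dopamine transporter, had a difference of -0.02 (95% interval -0.37 to 0.33, adjusted p = 0.976). ple, which encodes tyrosine hydroxylase, the first enzyme of dopamine synthesis, had 0.09 (95% interval -0.14 to 0.33, adjusted p = 0.748). Its mean log2 signal was under 0.5 in every group, close to the floor, so that a decrease could be hidden. Ddc, the decarboxylase that completes dopamine, had 0.22 (95% interval -0.08 to 0.53, adjusted p = 0.483). Vmat, the vesicular amine transporter, had 0.34 (95% interval 0.06 to 0.62, adjusted p = 0.214). Differences within these intervals cannot be set apart from 0 for DAT and Ddc, and whole flies dilute transcripts of the brain.

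Calls in lists for other processes stand against 1.95% lower and 0.918% higher among all genes. Of 27 hormone genes, Jheh2, a juvenile hormone epoxide hydrolase, and JhI-26 were lower, with differences of -1.98 ± 0.21 and -0.89 ± 0.11 (SE), and shd, which makes active moulting hormone, was higher with 0.80 ± 0.17 (SE). The other probe set of shd, under 0.5 in every group, had -0.19 and did not pass. Of 13 clock genes, cyc was lower with -0.58 ± 0.12 (SE) and 0 were higher. The calls of shd and cyc were lost in 9 and 8 of the 20 settings. Of 13 heat shock genes and 27 ribosomal protein genes 0 passed, with 1 and 8 at an unadjusted p under 0.05 and medians of 0.08 and -0.18. Of 50 listed cuticle genes, obst-A and Cpr49Ab were higher, with 0.90 ± 0.17 and 0.64 ± 0.14 (SE), and 20 lay under 0.5 in every group. Cpr67Fb, the cuticle protein gene named above, was not on this list and was lower, with -2.46 ± 0.40 (SE). The call of obst-A was lost with the GAPDH covariate, and that of Cpr49Ab in 7 of the 20 settings.

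Calls in the marker lists also stand against 1.95% lower and 0.918% higher among all genes. Among testis, seminal fluid and muscle markers 0 of 36, 0 of 39 and 0 of 20 passed the threshold. Without adjustment, 19, 13 and 11 of them had a p under 0.05, against 15.8% of all probe sets. Their median differences were 0.26, 0.15 and 0.29, against 0.06 over all genes. The muscle list's mean log2 signal was 8.27 to 8.37 in sons of methylphenidate mothers, 8.07 to 8.26 in sons of sucrose parents, 7.58 to 7.90 in methylphenidate males and 7.86 to 8.01 in sucrose males. The testis list's mean was 5.77 to 5.86 in sons of methylphenidate mothers, 5.69 to 5.82 in sons of sucrose parents, 5.88 to 6.02 in methylphenidate males and 6.06 to 6.19 in sucrose males. The muscle list was thus highest in sons, and the testis list highest in sucrose males. Of 31 neuron markers, the synaptic genes Rim and Rbp were higher, with 0.61 ± 0.12 and 0.49 ± 0.11 (SE), and the list's median was 0.26. Their other probe sets did not pass, with 0.05 and 0.32 for Rim and -0.12 for Rbp. All of these but the first lay under 0.5 in every group. The neuron list's mean log2 signal was 3.35 to 3.40 in sons of methylphenidate mothers, 3.12 to 3.33 in sons of sucrose parents, 3.26 to 3.34 in methylphenidate males and 3.37 to 3.45 in sucrose males. Of 25 gut markers, the mucin gene Muc68E was lower with -1.73 ± 0.18 (SE, adjusted p = 9.79e-05), and the list's median was -0.26. The part of organ size in these differences was not tested. Of 18 photoreceptor markers, Galphaq was higher, and of 16 Malpighian tubule markers, ry and Oatp58Dc were lower. The other probe sets of Galphaq, with differences of 0.14 and 0.52, did not pass. The calls of Rbp, Galphaq and ry were lost in 11, 13 and 11 of the 20 settings, and that of Oatp58Dc with the GAPDH covariate.

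**Figure D5:**
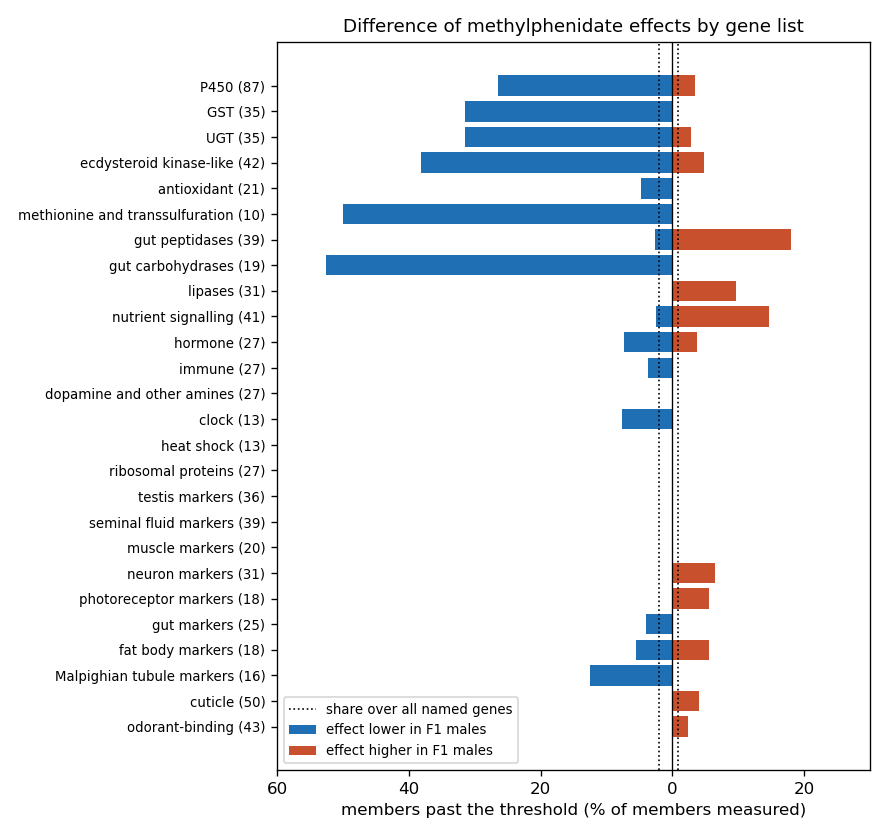
Bars give, for each of the 26 gene lists (y axis, measured genes in brackets), the share of measured genes past the threshold in percent (x axis), to the left for a lower effect in sons and to the right for a higher one. Dotted lines mark the shares over all named genes, 1.95% and 0.918%. The longest bars to the left are those of the carbohydrases (10 of 19) and the methionine and transsulfuration genes (5 of 10), and the longest to the right that of the peptidases (7 of 39).

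The called genes lay on all large chromosome arms. The share called was 2.88%, 3.51%, 1.80% and 3.02% of single-gene probe sets on 2L, 2R, 3L and 3R and 1.6% on X, where 24 were lower and 11 higher. Of 349 called genes placed in order along the chromosomes, 57 lay in 24 runs of direct neighbours, and 21 of the runs held a single direction. Many of these neighbours belong to families of related sequence, such as Cyp6a20, Cyp6a21 and Cyp6a8 or Ugt37C2, Ugt37E1 and Ugt37D1, and probes may read more than 1 of them. Among called genes with over 1 probe set, 39 of 54 second probe sets had the same sign, 5 of them passed, and 0 passed with the opposite sign.

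At the threshold, the nearest genes inside it were CG31463 with a difference of -1.51 (adjusted p = 0.0493) and CG33127 with -0.59 (adjusted p = 0.0491). The nearest outside were CG5953 with -0.63 (adjusted p = 0.05004) and OtopLb with 0.62 (adjusted p = 0.05007). Their p-values differ too little to separate them.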

How the data were processed

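Whole male flies were measured on 12 arrays, 8 flies each. The table deposited by the authors holds a log2 signal for each probe set on each array. It was made with RMA, affy and limma, per the submitters' processing notes, which state neither version nor order. The log base was checked on the bacterial hybridization controls: Cre minus BioB was 6.23, against 6.06 for the log2 of their nominal concentration ratio, and natural logs would have given 1.48 times the expected step.

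The table has 18952 probe sets, of which 18769 were tested and 183, the controls, were not. The platform annotation gave 1 gene for 13647 of them, several for 402 and none for 4720, and symbols of 13544 were updated through RefSeq gene identifiers. List members were counted on their brightest probe set. One model of 4 group means was fitted with lmFit, contrasts.fit and eBayes (limma 3.58.1, R 4.3.3). Tests were two-sided, p-values were adjusted by Benjamini-Hochberg over all 18769 probe sets, the threshold was 0.05, and errors of effects are standard errors (SE). Plots used matplotlib 3.10.9. Data were simulated with independent normal noise at the spread fitted for each probe set, and 200 probe sets were changed in methylphenidate males only. Differences of effects of 0.5, 1, 2 and 4 were then called in 27.3%, 98%, 100% and 100% of cases. Real arrays may vary in other ways, so these shares may be too high.

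The members, gene lists and naming rule were chosen with earlier results of these data known. Named genes were the 12 lowest and 12 highest differences among called probe sets of a single gene, counted once per gene. To these came up to 8 genes each with opposite effects, with the larger effect in sons, or past the threshold in neither generation. Up to 4 per list, the 4 dopamine genes and the 2 nearest genes on each side of the threshold completed the rule; other genes named were chosen after their values were seen. Replicate numbers did not pair the samples (correlations of deviations -0.17 to 0.13). Alternatives were the replicate block, removal of probe sets in the dimmest 30% or 50%, quantile normalization, median centring, trend and robust settings, array weights, a GAPDH covariate, and leaving out each of the 12 arrays.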

Additional observations from a re-analysis of the deposited data

Results flagged for a closer look

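The drug effect differed between exposed males and sons, by the test of the difference itself, for 393 probe sets. In 134 of these the groups did not overlap in either generation and ran in opposite directions, against 334 (1.78%) of all 18769 probe sets. The share among the 393 is no independent result, since the same contrast chose them. Among named genes with such opposite groups, the log2 difference of effects (sons minus exposed males) was 2.80 for fit, 1.84 for Obp99b, 2.60 for CG3348 and 2.34 for CG13912. It was -4.56 for Cyp6w1, -4.13 for Cyp6a14, -2.46 for Cpr67Fb, -1.76 for CG11911, -1.73 for Muc68E, -1.72 for CG12780, -1.68 for CG10912 and -1.20 for Lst. The groups of 3 arrays were too small for a search for single outlying samples.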

How the results depend on the processing

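Of 393 differing probe sets, 267 with a lower and 126 with a higher effect in sons, trend and robust settings gave 616, with 330 lower and 286 higher. The GAPDH covariate gave 209, with 132 lower and 77 higher. Leaving out 1 array at a time gave 241 to 538 in all, 171 to 263 lower and 62 to 279 higher. The highest total and higher count came without replicate 1 from the sons of sucrose parents, and the lowest of both without replicate 3 of the sons of methylphenidate mothers. The share with a lower effect was 67.9%, and 77.7% with median centring. The replicate numbers do not pair the samples, and with the replicate block 311 probe sets passed, 301 of them among the 393. No called gene that the naming rule chose changed direction under any of the 20 settings; genes named after their values were seen were not rerun. The 12 lowest differences among named genes kept their call in all 20 settings. Cyp4ad1, CenB1A, AANATL4, Stam, Ahcy, obst-A and Oatp58Dc lost it with the GAPDH covariate alone. The cause of these changes was not tested. Differences under 0.5 on the log2 scale were mostly below what 3 arrays per group could show, and dim probe sets understate any difference.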

Other observations

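Sucrose males were also lowest for a few genes that were picked here for this form after their values were seen, so that they stand for no pathway. Gart, which encodes a trifunctional enzyme of purine synthesis, had a log2 signal of 5.22, 4.97 and 4.76 in sons of methylphenidate mothers, 4.88, 5.21 and 5.17 in sons of sucrose parents, 5.65, 4.40 and 4.55 in methylphenidate males, and 3.09, 3.42 and 3.43 in sucrose males. The sucrose males lay below all other samples, which overlapped, and the difference of effects was -1.65 ± 0.35 (SE, adjusted p = 0.0227). Pfas and Adsl, which also encode enzymes of purine synthesis, had differences of -0.98 ± 0.18 and -1.02 ± 0.21 (SE, adjusted p = 0.00991 and 0.0197). Sucrose males were likewise lowest for ry, the xanthine dehydrogenase gene, and for mal and Mocs1, which act on the molybdenum cofactor of this enzyme or in its making. Their differences were -0.68 ± 0.16, -1.04 ± 0.15 and -0.88 ± 0.12 (SE), and the call of ry was lost in 11 of 20 alternative settings. Other genes of purine synthesis and of the cofactor were not counted.

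Mdr50, a transporter gene of the multidrug resistance family, likewise chosen after its values were seen, had 3.35, 3.01 and 3.26 in sons of methylphenidate mothers, 3.12, 3.05 and 3.33 in sons of sucrose parents, 5.28, 5.98 and 5.94 in methylphenidate males, and 3.44, 3.49 and 3.18 in sucrose males (log2 signals). Only methylphenidate males stood apart, and the difference was -2.32 ± 0.23 (SE, adjusted p = 5.45e-05).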
